A study of Mus musculus with 2 samples.

Results

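Expression of calcineurin and NFAT genes was compared between mouse regulatory T cells (Treg cells) labelled Nr4a-deficient and wild-type Treg cells. The set holds 10 genes chosen by name: the NFAT transcription factor genes Nfatc1, Nfatc2, Nfatc3 and Nfat5, the calcineurin subunit genes Ppp3ca, Ppp3cb, Ppp3cc and Ppp3r1, the calcineurin regulator gene Rcan1, and Nfatc2ip, which encodes a protein that binds NFAT. They are 10 of 30069 gene names on the array, and were read by 15 of 39348 gene probes. Calcineurin is a phosphatase that calcium and calmodulin switch on after the T cell receptor is engaged. It removes phosphates from NFAT proteins in the cytoplasm, which then enter the nucleus and bind DNA with partner factors such as AP-1 or Foxp3. Nfat5 is a more distant relative that responds to osmotic stress and does not need calcineurin to enter the nucleus.

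The groups were 1 library of Treg cells from mice labelled Nr4a-deficient (named Nr4a-TKO in the protocol) and 1 library of Treg cells from wild-type mice, all 5 weeks old. The Nr4a genes encode nuclear receptors that T cell receptor signals induce, and the comparison asks how Treg cells differ without them. The sources used here do not give the alleles, any Cre driver, the strain, the tissue, the sort markers or the number of animals. Total RNA was hybridised to 1 single-colour Agilent array per library, so every difference below describes 2 libraries and none has a test or a p-value.

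The targeted genes were checked first. In the library labelled Nr4a-deficient, Nr4a1 was 1.82-fold and Nr4a2 1.97-fold higher, and the Nr4a3 probe was not well above background in either library (23.7 ± 8.9 in the library labelled Nr4a-deficient, against 72.0 ± 7.3 in wild-type Treg cells, in units of scanner intensity, SD over 10 spots each). The deleted parts of the genes are not given, and a probe elsewhere in a gene is no check of a deletion, so each direction below rests on the label. Pan T cell markers were bright on both arrays, with Cd3e at 109161 units in the library labelled Nr4a-deficient, against 111548 in wild-type Treg cells, and Cd4 at 44906 units, against 48090 in wild-type Treg cells. Foxp3, the lineage factor of Treg cells, was near the limit of detection, at 74.5 units in the library labelled Nr4a-deficient, against 85.4 in wild-type Treg cells. All 7 Treg markers were detected, 2 of them more than 2-fold lower, and their summed scaled signal was 78.3 in the library labelled Nr4a-deficient, against 135.9 in wild-type Treg cells. The 75th percentile of the gene probes was 1762 units in the library labelled Nr4a-deficient, against 2047 in wild-type Treg cells. Signals were divided by that percentile before they were compared, and each difference is a log2 value, labelled Nr4a-deficient minus wild-type. The 8 spike-in RNAs lay at 0.36 ± 0.057 (SD, n = 8) on that scale, so on the spike-in scale every difference is 0.36 lower.

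All 15 probes were well above background on both arrays, and none was an outlier spot. Each was printed in 1 spot, so no spread between spots of the same probe can be given. In its place stands the SD of a difference between arrays for probes of similar brightness that were printed in 10 spots, called spot noise here. It ran from 0.070 for bright members to 0.31 for the dimmest probe, and it covers spot noise alone, not animals, sorts or RNA preparations. The scanner software gives an error of up to 15.9% of the signal, which comes to 0.20 to 0.30 on a log2 difference. This software error is more cautious than spot noise for all but the dimmest probe. Each ratio to spot noise given below would be smaller against it. Levels of different probes cannot be compared, because probes differ in brightness.

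For 3 of the NFAT genes, the sequence of 1 probe is shown because it is the stretch of the message that the array read. At least 1 reading frame crosses each without a stop codon, which does not show which part of the gene model it lies in. Each runs 5′ to 3′ in the sense of the transcript, as the array files give it, on build mm9.
Nfatc2, minus strand, chr2:168361757-168361816: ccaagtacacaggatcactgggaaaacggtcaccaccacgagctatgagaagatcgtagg
Nfatc3, plus strand, chr8:108615965-108616024: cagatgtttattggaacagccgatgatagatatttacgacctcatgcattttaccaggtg
Nfat5, plus strand, chr8:109882604-109882663: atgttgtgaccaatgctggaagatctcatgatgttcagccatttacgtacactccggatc

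Nfatc1 had the highest difference of the 10 members. With each gene read by its brightest probe, the other 9 (90.0% of members) lay within 1.5-fold, beside 82.4% of the 18360 genes with a value. Nfatc1 was past 2-fold higher and no member was 2-fold lower, beside 4.7% of 18540 detected genes higher by 2-fold or more and 4.94% lower. The members' counts at 1.5-fold were the same, 1 higher and 0 lower, beside 8.72% of detected genes higher and 8.68% lower. On the spike-in scale Rcan1 (-0.74) and Ppp3ca (-0.64) passed 1.5-fold lower. Of all 15 probes, 11 lay within 1.5-fold, and the others were both probes of Nfatc1, a dimmer probe of Ppp3cc and a dimmer probe of Nfatc3. The median of the 10 members was 0.029, and that of all genes 0.00092. Across all 15 probes, 12 differences were above 0 and 3 below, but 6 were above 0 and 9 below on the spike-in scale. These counts take several probes of the same gene separately. By gene, 7 were above 0 and 3 below, beside 50.2% of all genes with a value above 0. On the spike-in scale 2 genes were above 0 and 8 below. The plot of signals by array shows the pairs of values.

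**Figure D1:**
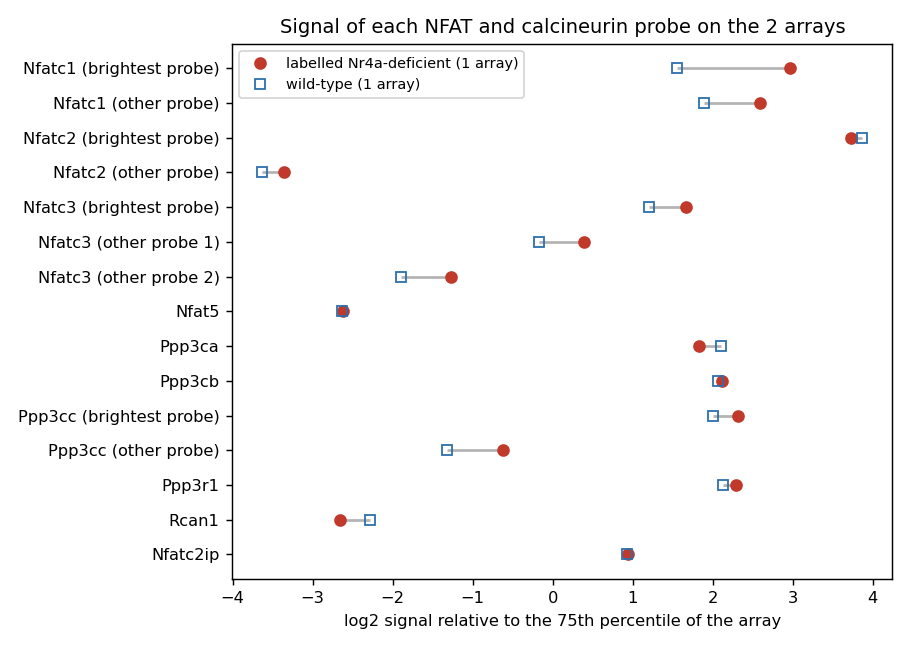
Signal of each of the 15 probes on the 2 arrays, on a log2 axis relative to the 75th percentile of the array. Circles are the library labelled Nr4a-deficient and squares the wild-type library, 1 array each, and distances are meaningful within a row, not between rows. The pair of the upstream Nfatc1 probe is set furthest apart, and those of Nfat5 and Nfatc2ip overlap.

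Nfatc1 (NFAT2) is the NFAT gene that T cell activation itself induces. Its transcripts can end early or late in the gene, and the early end yields the short form that accumulates in activated lymphocytes. The 2 probes of Nfatc1 lie on chromosome 18, minus strand, and 41715 bases apart on mm9. The array design lists 2 RefSeq transcripts for the upstream probe (chr18:80845439-80845498) and 4 others for the downstream probe (chr18:80803664-80803723). Together these are all 6 curated RefSeq transcripts listed for the gene, with none shared. The design lists 4 sequences for each member probe, so its lists may be incomplete. They do not show that either probe misses the other transcripts.

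The upstream probe read 13724 units in the library labelled Nr4a-deficient, against 6033 in wild-type Treg cells. After scaling it was 2.64-fold higher there (difference 1.40, spot noise 0.071). The downstream probe read 10585 units in the library labelled Nr4a-deficient, against 7596 in wild-type Treg cells, a 1.62-fold higher value (0.69, spot noise 0.071). Both probes were thus higher, the upstream one past 2-fold and the downstream one short of it.

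The 2 Nfatc1 differences were 0.71 apart, which is 7.06 times the spot noise of that gap. The software error was larger, at 0.20 on each of the 2 differences. A scaling by 1 factor per array leaves this gap as it is, and it was 0.72 after quantile normalization. Among 3799 genes measured in both libraries by more than 1 probe, the probes of 6.98% spanned as much or more, with a median span of 0.14. The difference at the upstream probe was above that of 97.1% of all genes with a value. Over 8 scalings and corrections it ran from 1.04 to 1.47, and the downstream probe from 0.33 to 0.75, with the lowest values on the spike-in scale.

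Which probe stands for Nfatc1 decides whether the gene counts as 2-fold higher. The 2 probes were almost equally bright, with a mean scaled log2 signal of 2.26 upstream and 2.24 downstream. Taking the probe that is brighter in the wild-type library gave 0.69 for the gene, and the mean of both gave 1.05.

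Nfatc1 is also expressed by B cells, and B cell markers were higher too. Of 7 markers, 5 were above background, all 5 had a positive difference and 1 was past 2-fold (Ebf1, 2.25-fold). Their summed scaled signal was 12.1 in the library labelled Nr4a-deficient, against 6.91 in wild-type Treg cells, with Pax5 and Blk not above background on either array. Ms4a1 was 1.93-fold higher. Their part in the Nfatc1 result was not tested. In a bulk sample, a change in the number of cells of a type and a change in RNA per cell cannot be told apart.

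Nfatc2 (NFAT1) is the NFAT protein already present in resting T cells and the classic partner of Foxp3. Its brighter probe (chr2:168301974-168302033), read 23297 units in the library labelled Nr4a-deficient, against 29946 in wild-type Treg cells. The difference was -0.15 (1.11-fold lower, spot noise 0.073). The dim probe 59723 bases upstream, whose sequence is shown above, read 171.8 units in the library labelled Nr4a-deficient, against 165.4 in wild-type Treg cells, a difference of 0.27 with a spot noise of 0.31. The probes therefore had opposite signs, and the gap between them, 0.42, was 1.30 times its spot noise. Under the mean of both probes the gene lay at 0.062.

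Nfatc3 (NFAT4), another calcineurin-controlled NFAT factor of T cells, had 3 probes, and all read higher. The probe shown above read 2305 units in the library labelled Nr4a-deficient, against 1817 in wild-type Treg cells (0.56). A probe at chr8:108643263-108643322 read 732.5 units in the library labelled Nr4a-deficient, against 549.5 in wild-type Treg cells (0.63). The brightest probe, at chr8:108654316-108654375, read 5616 units in the library labelled Nr4a-deficient, against 4699 in wild-type Treg cells (0.47, 1.39-fold). The probes spanned 0.16, close to the median span of 0.14 over genes with several probes. The differences were 4.87 to 6.75 times their spot noise, and all 3 stayed above 0 on the spike-in scale, at 0.11 to 0.27.

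Nfat5 read 285.8 units in the library labelled Nr4a-deficient, against 331.1 in wild-type Treg cells. After scaling the difference was 0.0036, well inside its spot noise of 0.20, and it turned to -0.36 on the spike-in scale. Of 8 listed genes that Nfat5 induces in other cell types, 7 had a value and none passed 2-fold. For so few genes this is near the 4.7% of all detected genes higher and 4.94% lower. The 7 ran from S100a4 at 0.12 (-0.25 on the spike-in scale) to Slc5a3, the inositol transporter gene, at -0.20.

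Calcineurin pairs a catalytic A subunit, from Ppp3ca, Ppp3cb or Ppp3cc, with a regulatory B subunit that binds calcium, from Ppp3r1. None of the 4 genes reached 1.5-fold by its brightest probe, and their differences ran from -0.28 to 0.32 with a median of 0.11.

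Ppp3ca, the alpha catalytic subunit (chr3:136598682-136598741), read 6241 units in the library labelled Nr4a-deficient, against 8776 in wild-type Treg cells. It was 1.21-fold lower (-0.28, 3.86 times its spot noise, beside a software error of 0.20). That sign held over 8 scalings and corrections, from -0.64 to -0.20. Of these, the value table and the kept outlier spots nearly repeat the main value. The settings of filter and probe choice cannot move Ppp3ca, which has 1 probe, above background on both arrays. Ppp3cb, the beta subunit and the main form of lymphocytes (chr14:21319265-21319324), read 7649 units in the library labelled Nr4a-deficient, against 8601 in wild-type Treg cells. Its difference of 0.047 was smaller than its spot noise of 0.072.

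Ppp3cc, the gamma subunit best known from testis, had its brightest probe at chr14:70617749-70617808. That probe read 8789 units in the library labelled Nr4a-deficient, against 8182 in wild-type Treg cells, 1.25-fold higher (0.32), and -0.045 on the spike-in scale. A second probe at chr14:70623599-70623658 read 1151 units in the library labelled Nr4a-deficient, against 818.4 in wild-type Treg cells, 1.63-fold higher (0.71), and 0.34 on the spike-in scale. The 2 differences were 0.39 apart, 3.16 times the spot noise of the gap, and 19.6% of genes with several probes spanned as much or more. The alpha and gamma subunits thus pointed in opposite directions under the scaling to the 75th percentile.

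Ppp3r1, the B subunit that every calcineurin of lymphocytes carries (chr11:17100263-17100322), read 8628 units in the library labelled Nr4a-deficient, against 8914 in wild-type Treg cells. The scaled difference was 0.17 (1.12-fold higher, spot noise 0.071) and turned to -0.20 on the spike-in scale.

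**Figure D2:**
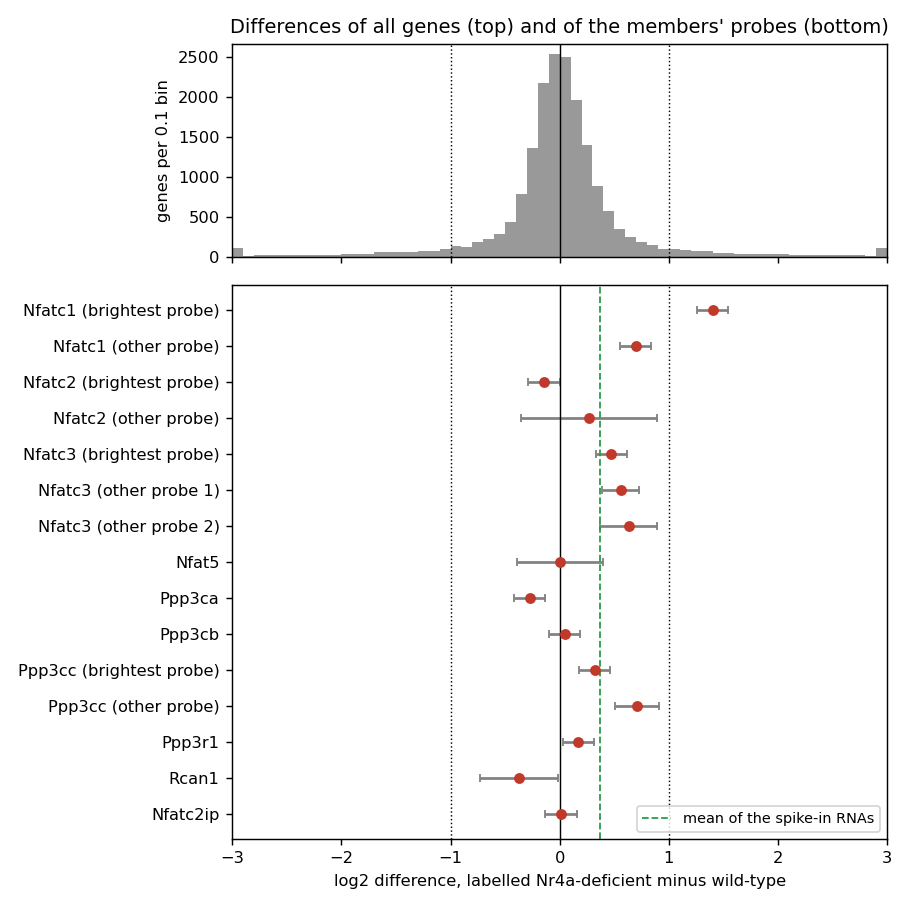
The upper panel is a histogram of the log2 differences of 18360 genes in bins of 0.1, with values beyond 3 in either direction gathered in the outer bins. The lower panel gives each of the 15 probes as a point with a bar of 2 times the spot noise SD on either side, dotted lines at 2-fold and a dashed line at the spike-in mean of 0.36. The upstream probe of Nfatc1 lies beyond 2-fold at 1.40.

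Rcan1 and Nfatc2ip act on the pathway rather than in it. Rcan1 encodes a protein that binds calcineurin and inhibits it, and its internal promoter is switched on by calcineurin and NFAT, so its message is often used as a readout of the pathway. Its probe (chr16:92392763-92392822) was designed on both RefSeq transcripts and does not separate the promoters. It read 279.6 units in the library labelled Nr4a-deficient, against 420.2 in wild-type Treg cells, 1.29-fold lower (-0.37). That was 2.06 times its spot noise of 0.18, and the sign held over 8 scalings and corrections, from -0.74 to -0.35. As with Ppp3ca, the gene has 1 probe, so the settings of filter and probe choice cannot move it. Rcan1 was thus the lowest of the 10 members, while Nfatc1 was the highest.

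The internal Rcan1 promoter is shown because it is the known NFAT-responsive one. The 250 bases before its start (RefSeq, GRCm38.p6, chr16:92400079-92400328, minus strand, 5′ to 3′) hold 3 matches to the NFAT core GGAAA or its reverse complement TTTCC, in capitals, which begin 227, 193 and 163 bases before the start and do not overlap.
Rcan1 internal promoter: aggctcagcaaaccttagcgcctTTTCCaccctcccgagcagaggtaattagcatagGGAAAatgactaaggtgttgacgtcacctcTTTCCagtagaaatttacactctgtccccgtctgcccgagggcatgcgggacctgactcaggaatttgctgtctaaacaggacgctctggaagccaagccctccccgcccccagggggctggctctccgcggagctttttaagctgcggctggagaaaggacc
Of 32851 windows of 300 bases around gene starts, 61.3% hold at least 1 match and 9.42% at least 3. The other Rcan1 window, at chr16:92466120-92466419, holds 0. A match is a description of letters, not evidence of binding.

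Nfatc2ip encodes the NFAT-interacting protein NIP45, known for raising Th2 cytokine expression in mouse T cells. Its probe (chr7:133526654-133526713) read 3380 units in the library labelled Nr4a-deficient, against 3896 in wild-type Treg cells. The difference of 0.011 was smaller than its spot noise of 0.074. It turned to -0.35 on the spike-in scale.

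**Figure D3:**
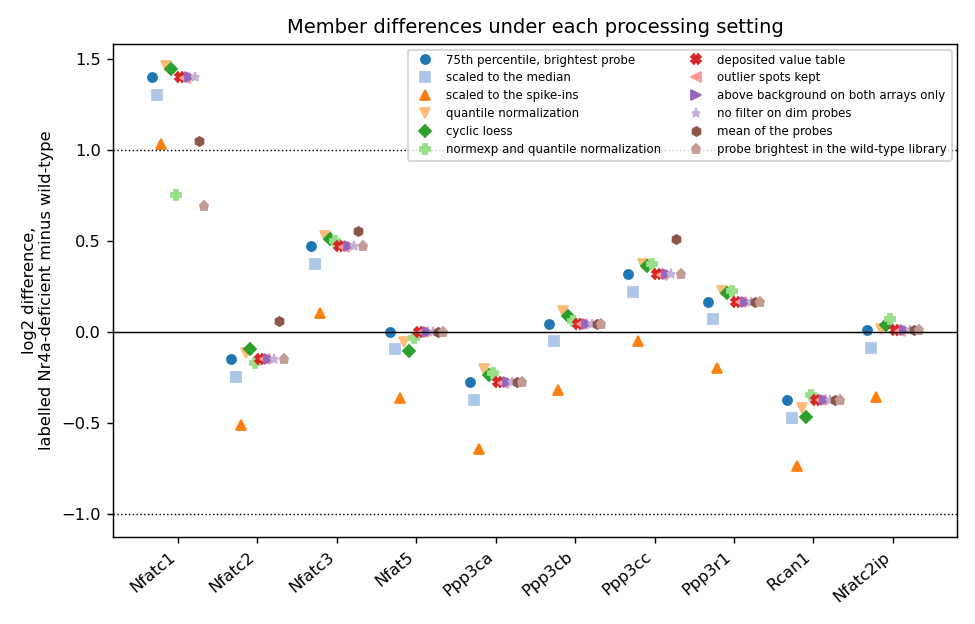
Log2 difference of each of the 10 members under 12 processing settings, with 1 marker shape and colour per setting and dotted lines at 2-fold. Nfatc1 and Nfatc3 stay above 0 and Ppp3ca and Rcan1 below 0 throughout, and Nfatc1 runs from 0.69 to 1.46. The filter settings cannot move any member, and the probe choice moves only genes with several probes.

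In a list of calcium entry and calmodulin genes, which carry the signal to calcineurin, 12 of 12 had a value, with a median of 0.17. Of the 12, 10 were above 0, beside 50.2% of all genes with a value. None passed 2-fold, which in a list this short is near the 4.7% of all detected genes higher and 4.94% lower. The same holds for the other short lists below with none past 2-fold. Stim1, the calcium sensor of the endoplasmic reticulum, was highest at 0.46 (1.37-fold, with 0.45 at its other probe), and Stim2 lowest at -0.15. On the spike-in scale, where the median of all genes lay at -0.37, 1 of the 12 was above 0. Inhibitors and binding partners of calcineurin had 6 of 8 genes with a value and none past 2-fold. Rcan3, a relative of Rcan1, was lowest of these at -0.46 (1.38-fold lower) and Cabin1, which binds and inhibits calcineurin, highest at 0.17 (-0.19 on the spike-in scale).

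Other family members were few. Nfatc4 read 2499 units in the library labelled Nr4a-deficient, against 3198 in wild-type Treg cells (-0.14), and Rcan2 and Ppp3r2 were not above background on either array. The kinases that put phosphates back on NFAT had 7 of 8 genes with a value, none past 2-fold, from Csnk1e at 0.32 (-0.041 on the spike-in scale) to Csnk1a1 at -0.065. Among 4 nuclear transport genes, Kpna2, an importin, was lowest at -0.37, with 4 probes from -0.37 to -0.28, and Xpo1, the exportin that carries NFAT out of the nucleus, lay at 0.079 (-0.29 on the spike-in scale). Other substrates of calcineurin had 7 of 8 genes with a value and none past 2-fold, from Crtc3 at 0.23 (-0.13 on the spike-in scale) to Ksr2 at -0.42.

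Factors that bind DNA with NFAT had 16 of 18 genes with a value, 2 past 2-fold higher and none 2-fold lower, beside 4.7% and 4.94% of all detected genes. On the spike-in scale 1 was past 2-fold higher. The median was 0.31, or -0.051 on the spike-in scale. The 2 were AP-1 genes. Fosl2 read 1486 units in the library labelled Nr4a-deficient, against 458.4 in wild-type Treg cells (3.77-fold higher). Fosb read 2258 units there, against 1039 in wild-type Treg cells, 2.53-fold higher, and lay at 0.97 on the spike-in scale, just short of 2-fold. Irf4, which NFAT binds beside at cytokine genes, was lowest at -0.58.

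Genes that NFAT induces in T cells split in both directions. Of 23 listed, 21 had a value, 7 were past 2-fold higher and 2 past 2-fold lower, with 12 between, beside 4.7% and 4.94% of all detected genes. The list's median was 0.099, and -0.37 over its 18 genes measured on both arrays on the spike-in scale. On that scale 5 of the 18 were past 2-fold higher and 3 past 2-fold lower (Il2, Il2ra and Havcr2, the last at -1.05). The 18 leave out Il5, Il13 and Il21, which were not above background in the wild-type library. The higher genes were the cytokines Il4, Il10, Il13 and Il21, the chemokines Ccl3 and Ccl4, and the co-inhibitory receptor gene Lag3. Ccl4 read 6895 units in the library labelled Nr4a-deficient, against 1114 in wild-type Treg cells (7.19-fold higher). Il13 had the highest value, a limit of at least 43.8-fold, since it was not above background in the wild-type library. Il2ra, the lowest, was 2.42-fold lower. Il2 read 92.9 units in the library labelled Nr4a-deficient, against 217.3 in wild-type Treg cells, 2.01-fold lower and dim on both arrays. Markers of other cells differed in the same libraries. Plasmacytoid dendritic cell markers had 4 of 6 at least 2-fold higher, with a median difference of 1.33 (summed scaled signal 99.7 in the library labelled Nr4a-deficient, against 81.3 in wild-type Treg cells). Cox6a2 was 114-fold higher, from 83.8 units in wild-type Treg cells, near the lowest signal above background there, 73.8. Tcf4 was 7.57-fold higher at its brightest probe (2.92) and lay at 1.94 at its other one. Siglech, whose brightest probe weighs most in that sum, lay at 0.10 at that probe and at 6.63 at its other one. For NK and CD8 T cells, 2 of 6 detected markers were past 2-fold higher (sum 2.61 in the library labelled Nr4a-deficient, against 1.55 in wild-type Treg cells), and Ncr1 was not above background. For myeloid and dendritic cells, 3 of 9 markers were past 2-fold higher (Itgax, Clec9a and Lyz2) and 5 lower (Adgre1, C1qa, C1qb, C1qc and Cd14). The sum of this list was 22.6 in the library labelled Nr4a-deficient, against 44.5 in wild-type Treg cells. For erythroid cells and platelets, 3 of 4 markers with a value were past 2-fold lower, Hba-a1 by 3.52-fold (sum 5.85 in the library labelled Nr4a-deficient, against 20.2 in wild-type Treg cells), and Pf4, Ppbp and Itga2b were not above background. Their part in the target genes was not tested.

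**Figure D4:**
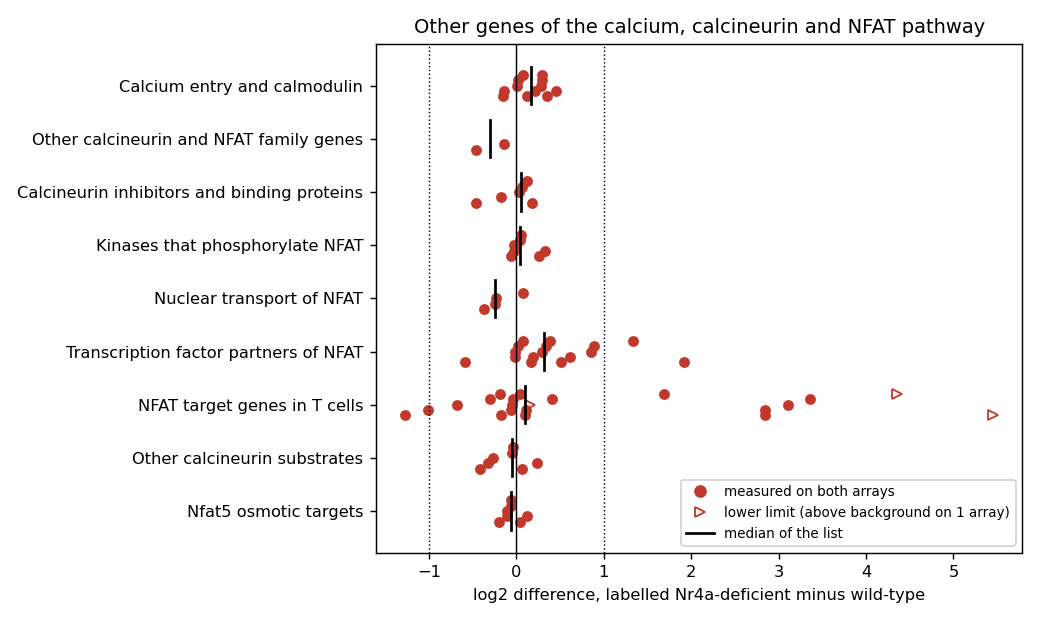
Log2 differences of the other genes of the pathway, grouped by list, with filled circles for genes measured on both arrays, open triangles for lower limits and black bars for list medians. Dotted lines mark 2-fold. Points beyond 2-fold fall in 2 of the 9 lists, the transcription factor partners and the target genes.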

How the data were processed

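Per the file headers, the authors used Agilent Feature Extraction (version 10.7.3.1), whose processed signal is an intensity with background subtracted and spatial and multiplicative trends removed within the array, with no normalization between arrays. The deposited value table holds the same intensity with repeated spots averaged: 99.6% of 39348 probes on both arrays lay within 1% of the scanner value. Array coordinates are on mm9. Both arrays carry the same scan time.

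Outlier spots were left out (173 gene spots in the library labelled Nr4a-deficient, against 209 in the wild-type library), repeated spots averaged, and the log2 75th percentile subtracted (Python 3.11.15, limma 3.58.1 for alternatives). A gene was its brightest probe, by the mean of both arrays, among probes above background on at least 1 array (over 50% of spots). Where 1 array was not above background, the difference is a limit against the higher of the probe's own value and the lowest detected one. Spot noise is the root mean square SD of the 50 probes nearest in brightness, of those printed in 10 spots. Names were updated through RefSeq GRCm38.p6, and 30069 resulted. The arithmetic was tested on simulated data. Named genes were every member with each probe, the Nr4a genes, and in each list those past 2-fold and the highest and lowest. One marker of the B cell list is not reported here and was left out of its counts and sum. Members and lists were chosen with earlier results of these data known. With 1 library per group there was no test, and the number of arrays limits the precision. Alternatives covered scaling, background correction, the value table, outlier spots, the filter on dim probes and the probe that stands for a gene.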

Additional observations from a re-analysis of the deposited data

How the results depend on the processing

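No paired analysis was possible because each group had 1 library. For single members, 85 of 110 values under 11 alternatives moved by less than the spot noise, 25 moved by more, and the called value of Nfatc1 kept its sign. Many of the 85 could not move, so the count is no measure of stability. All member probes were above background on both arrays, so the filter settings leave every member as it was. The probe choice leaves genes with 1 probe as they were, and the value table repeats the main values. Nfatc1 was past 2-fold higher as reported, and the members past 2-fold higher numbered 0 with normexp followed by quantile normalization and 0 with the probe brightest in the wild-type library, an alternative chosen after seeing the data; in both, the downstream probe stood for the gene. At 1.5-fold in place of 2-fold, under the scaling to the 75th percentile, the counts were also 1 higher and 0 lower, while Rcan1 and Ppp3ca passed 1.5-fold lower with the spike-ins, at -0.74 and -0.64. The median of the members, 0.029, turned to -0.068 when scaled to the median and -0.34 when scaled to the spike-ins. Over all genes, the main counts were 871 higher and 915 lower (48.8% of calls higher). They became 563 and 1492 (27.4% higher) with the spike-ins, 565 higher with normexp and quantile normalization, 432 and 499 with probes above background on both arrays only, and 2059 and 1785 with no filter on dim probes. The pathway lists together had 81 genes with a value, each counted once. Of these, 9 were 2-fold higher (11.1%) and 2 lower (2.47%), beside 4.7% and 4.94% of all detected genes. The counts were 8 and 3 with the spike-ins, and 9 and 1 with normexp and quantile normalization. They were 7 and 2 with probes above background on both arrays only, and 11 and 2 with no filter on dim probes. The median of all genes lay at -0.099 when scaled to the median and at -0.37 when scaled to the spike-ins. Signal over background limits the dim probes of Rcan1, Nfat5 and Nfatc2, whose spot noise was 0.18 to 0.31.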

Other observations

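Tnfrsf9, the gene of the costimulatory receptor 4-1BB and an NFAT target, was chosen after its values were seen. It lay at -0.041 at its brightest probe and at -1.68 at its other probe, and which transcripts the probes read was not analysed here.

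Among the promoter windows of the members, 7 genes had 10 windows, and Nfatc1, Ppp3ca and Ppp3cc had none. Among the 7, Ppp3cb had the most matches to GGAAA or TTTCC, with 4. That count was reached or passed by 2.65% of all windows, and the level of Ppp3cb differed by 0.047 between the libraries.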
